A study of Mus musculus with 2 samples.

Results

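The 6 genes described here are the mitochondrially encoded mRNAs of respiratory chain complexes III to V: mt-Cytb of complex III, mt-Co1, mt-Co2 and mt-Co3 of complex IV, and mt-Atp6 and mt-Atp8 of complex V. They were chosen by name, as the members of 15046 genes counted that carry a protein of these complexes on chromosome M, and all 6 were present. The counts came from single neural stem/progenitor cells (NSPCs) of the adult mouse subventricular zone, isolated from C57/Bl6 male mice of 6 to 8 weeks and expanded in culture with human EGF and basic FGF-2. The cells carried a retroviral fusion of GFP to PLIN2, a coat protein of lipid droplets (LDs), driven by the CAG promoter, so every cell of either group expressed an added PLIN2. They were kept as 1 stable line, and no further treatment was given.

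Proliferating cells were sorted by their GFP signal, and the 25% lowest (low PLIN2-GFP NSPCs) and the 25% highest (high PLIN2-GFP NSPCs) were placed in single wells of 384-well plates for SORT-seq, which counts the 3′ ends of polyadenylated RNA by unique molecular identifiers (UMIs). Plate 1 gave 95 low and 84 high cells and plate 2 gave 72 low and 53 high cells. Low and high cells lay in separate rows of wells on both plates (0 of 16 rows held both), so that well row and category cannot be told apart. Well barcodes are the same set on each plate, and 59 well positions held a cell on both (32.96% of those of plate 1 and 47.2% of those of plate 2), which are different cells. Both plates held cells of the same line, and the main tests took out the difference in level between plates. Their p-values therefore measured how far a difference between groups varied between 2 plates of 1 line, moderated by the spread across genes. Each cell also carried an assigned cell cycle phase and 1 of 2 clusters from the study. The phase was assigned from nuclear cell cycle genes in the counts of these same cells, and not from the members.

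Total UMIs per cell ran from 1170 to 34630, with a median of 10774. High cells were deeper than low cells on both plates, with medians of 11709 against 7856 on plate 1 and 14729 against 11955 on plate 2. The mitochondrial percentage per cell (percent.mt, the share of a cell's counts from the 25 mitochondrially encoded genes) ran from 5.56 to 23.1. The methods name a limit of 20% for it, and 11 cells lay at 20% or above. NSPC markers were present in all 4 sums of plate and category. Fabp7 lay at 2909 to 3392 and Vim at 2480 to 3124 counts per 1000000 (CPM), and Sox2 was the lowest at 20.6 to 32.6 CPM. Of the astrocyte markers Gfap did not exceed 0.972 CPM. Aldh1l1 lay at 57.2 to 87.5 CPM, with at least 1 count in 42.1% of cells. Olig2, a gene of the oligodendrocyte lineage that progenitors also use, reached 992 to 1205 CPM, and none of the 4 microglial markers was among the genes analysed here. The summed levels of the lists were 6294 to 6404 CPM for NSPC, 65.3 to 111.8 for astrocyte, 1.94 to 15.2 for neuron, 1003 to 1214 for oligodendrocyte lineage and 0.583 to 6.86 for endothelial markers. The neuron, oligodendrocyte lineage and endothelial sums rest on 2 genes each. Dcx, Tubb3, Pdgfra, Mbp, Mog and Cldn5 were not among the genes analysed here. The part of these markers in the results was not tested.

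Mitochondria keep a small genome of their own that encodes core subunits of the respiratory chain and of ATP synthase, and all other subunits are made from nuclear genes and imported. Complex III passes electrons from ubiquinol to cytochrome c, complex IV passes them on to oxygen, and complex V uses the proton gradient to make ATP. The mitochondrial mRNAs are cut from long polycistronic transcripts, mostly by removal of the tRNAs that lie between them, and are then polyadenylated. Some carry an incomplete stop codon that the poly(A) tail completes, and among the members mt-Cytb and mt-Co3 ended 1 base past a whole codon. Proliferating NSPCs are known to draw on glycolysis and to rely more on oxidative phosphorylation as they differentiate.

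All 6 members lay on the plus strand of chromosome M in GRCm38, each as a single exon. mt-Co1 covered chrM:5328-6872, mt-Co2 chrM:7013-7696, mt-Atp8 chrM:7766-7969, mt-Atp6 chrM:7927-8607, mt-Co3 chrM:8607-9390 and mt-Cytb chrM:14145-15288. mt-Atp8 was the shortest and mt-Co1, with 1545 bases, the longest. mt-Atp8 and mt-Atp6 are read from 1 bicistronic mRNA in different frames and shared 43 bases, and mt-Atp6 and mt-Co3 shared 1 base. The sequence of mt-Atp8 from the GENCODE M21 transcripts is shown because the part in capitals is also the start of mt-Atp6. These 43 bases belong to both genes and are fewer than the 60 bases of a read.
mt-Atp8: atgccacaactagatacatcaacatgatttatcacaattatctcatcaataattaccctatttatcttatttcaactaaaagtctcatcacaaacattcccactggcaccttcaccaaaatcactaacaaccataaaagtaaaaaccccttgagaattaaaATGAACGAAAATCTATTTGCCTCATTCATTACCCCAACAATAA

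Nuclear copies of 4 members were annotated as pseudogenes and had counts of their own. A copy of mt-Atp6 (Gm10925, chr1:24613974-24614651), a copy of mt-Co3 (Gm28437, chr1:24613189-24613971) and a copy of mt-Co2 (Gm28661, chr1:24614885-24615565), all on the minus strand, matched the member at every base they held and lacked the last 3, 1 and 3 bases of it. The 3′ ends are shown because the annotated copies differ from the members only at the bases in capitals, which lie past their annotated ends. Whether chromosome 1 goes on to match past these ends was not examined. The capitals therefore need not tell a mitochondrial read from a nuclear one.
mt-Atp6, chrM:8568-8607: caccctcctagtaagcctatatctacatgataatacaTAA
Gm10925, chr1:24613974-24614010: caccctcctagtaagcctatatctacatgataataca
mt-Co3, chrM:9351-9390: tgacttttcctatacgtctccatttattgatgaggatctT
Gm28437, chr1:24613189-24613227: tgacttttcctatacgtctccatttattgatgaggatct
mt-Co2, chrM:7657-7696: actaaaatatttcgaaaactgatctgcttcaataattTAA
Gm28661, chr1:24614885-24614921: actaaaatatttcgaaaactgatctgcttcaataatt

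The mt-Atp6 counts were split evenly with the copy in every cell. mt-Atp6 and Gm10925 each held 21568 counts, and they were equal in 100% of cells to within 1e-06 counts. The deposited mt-Atp6 level is therefore 50% of the counts given to both genes, in each of the plates, categories and phases.

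The split of mt-Co3 and mt-Co2 counts varied from cell to cell, mostly between an equal split and almost none. Gm28437 held 2564 counts against 7530 for mt-Co3, or 25.4% of both, and it equalled mt-Co3 in 59.9% of cells and held under 0.5 counts in 40.5%. For mt-Co2 the copy took 1256 counts, 2.87% of both, with equal counts in 11.2% of cells and under 0.5 counts in 82.2%, and 6.58% of cells lay in neither state. For mt-Co3 no cell lay in neither. The equal splits were more frequent in shallow cells: Gm28661 equalled mt-Co2 in 24 of the 51 cells of the lowest sixth of total UMIs and in 1 of 51 in the highest, and its share of both fell from 17.3% to 1.05%. Gm28437 equalled mt-Co3 in 41 of 51 and in 22 of 51 cells of those sixths, and its share was 33.7% and 19.6%. A deposited mt-Co3 or mt-Co2 count thus covers nearly all of the shared counts in some cells and 50% of them in others, and a difference between cells in these genes carries that split.

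Little was divided with annotated copies for the other members. The copies of mt-Co1, Gm29216 (chr1:24615706-24616197) and Gm13340 (chr2:22588103-22589647), took 0.151% and 1.5% of the counts of both genes. Gm29216 differed from mt-Co1 by A1066T over the 483 bases they share, with positions counted from the first base of mt-Co1. Among annotated transcripts no copy with at least 97% identity over 100 bases was found for mt-Cytb or mt-Atp8. Nuclear sequence without annotation was not searched, so such a copy of either gene would have been missed. Gm10925 also holds the 43 bases that mt-Atp8 shares with mt-Atp6.

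**Figure D1:**
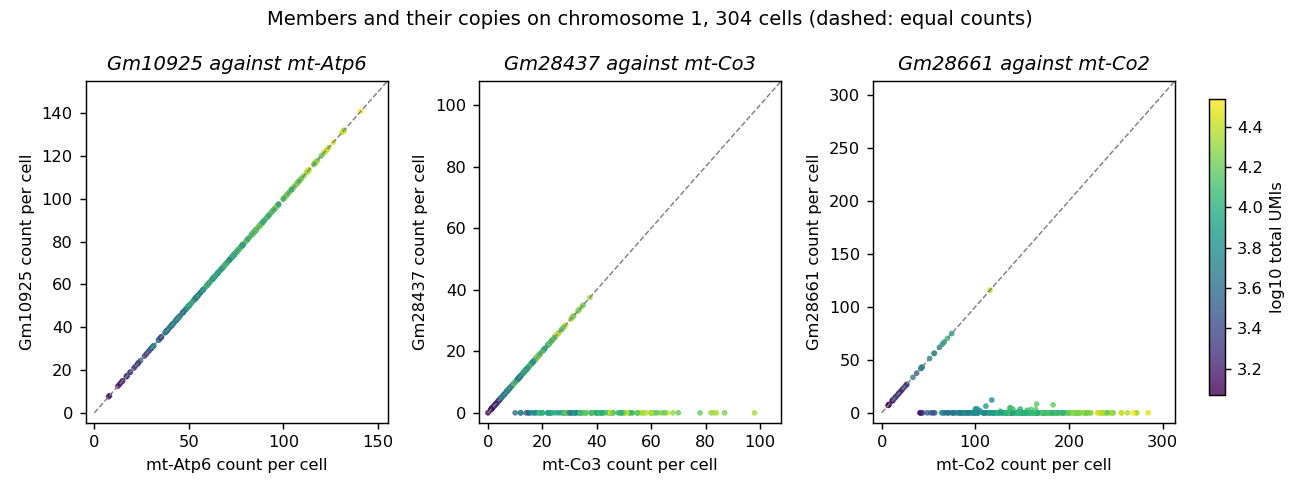
Counts per cell of the copy (y axis) against the member (x axis) in all cells, for mt-Atp6 with Gm10925, mt-Co3 with Gm28437 and mt-Co2 with Gm28661. The colour gives the log10 total UMIs of the cell and the dashed line equal counts. All cells lie on the line for mt-Atp6, while for mt-Co3 and mt-Co2 the cells lie mostly on the line or near a copy count of 0.

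The members together took 4.48% of all counts, and single cells ranged from 2.56% to 9.06% with a median of 4.80%. mt-Cytb led with 62308 counts (1.80% of all), ahead of mt-Co2 with 42513 (1.23%), mt-Atp6 with 21568 (0.622%), mt-Co1 with 17836 (0.515%), mt-Co3 with 7530 (0.217%) and mt-Atp8 with 3632 (0.105%). mt-Cytb, mt-Co1, mt-Co2 and mt-Atp6 had counts in every cell, mt-Co3 in all but 1 and mt-Atp8 in all but 3. In the 4 sums the members made up 48.5% to 53.1% of the counts of the 13 mitochondrially encoded mRNAs and 36.1% to 38.7% of all mitochondrial counts. With the copies of the members added to them, the share among the mRNAs was 52.4% to 56.9%.

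Per kilobase of gene length the order of the levels as deposited was the same in all 4 sums of plate and category. mt-Co2, the subunit of complex IV that takes electrons from cytochrome c, was at the top with 16005 to 21362 CPM per kilobase. mt-Cytb, the cytochrome b of complex III, followed with 14669 to 17979, and its range overlapped that of mt-Co2 over the sums although it was below mt-Co2 in each of them. mt-Atp6, which forms the proton path of ATP synthase, lay at 8097 to 10840 as deposited, without its copy. With copies added, mt-Atp6 (681 bases) took 1.31% of counts on plate 1 and 1.17% on plate 2. mt-Co2 (684 bases) then took 1.32% and 1.19%, and mt-Cytb (1144 bases) 1.82% and 1.77%. The place of mt-Atp6 below mt-Cytb per kilobase thus holds for the deposited counts only. mt-Atp8, the small partner of mt-Atp6 in the membrane part of the synthase, lay at 4786 to 5940, mt-Co1, the catalytic subunit of complex IV, at 2843 to 4030 and mt-Co3, a further core subunit, at 2005 to 3471, so that the ranges of mt-Co1 and mt-Co3 overlapped. SORT-seq reads come from 3′ ends, and a level per length is then not a level per molecule. mt-Atp8 lies ahead of mt-Atp6 on their shared mRNA and has no 3′ end of its own there. The origin of the mt-Atp8 counts was not tested, here or in the comparisons below.

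Between plates the largest log2 ratios were those of mt-Co3 and mt-Co1. mt-Co3 took 0.261% of the counts on plate 1 and 0.168% on plate 2, a log2 ratio of -0.63, and -0.52 with its copy added. mt-Co1 took 0.576% and 0.445%, a log2 ratio of -0.37. mt-Cytb was close on both, with 1.82% and 1.77%, and mt-Atp8 at 0.102% and 0.107% was the member with the higher value on plate 2. Each plate is 1 library, so no test was made between them.

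High against low PLIN2-GFP NSPCs were compared to ask whether the mitochondrial mRNAs differed with the amount of PLIN2-GFP. With all cells, 3 of the 6 members were called lower in high cells: mt-Cytb, mt-Atp6 and mt-Co2, each at a log2 fold change between -0.21 and -0.24. All 6 had a negative log2 fold change, but none was called when cells of the categories were matched on their total UMIs. The background was low: of 8348 genes tested on the 4 sums, 1.26% were called lower and 0.886% higher (edgeR, quasi-likelihood, with plate as a block and a Benjamini-Hochberg adjusted p under 0.1). When library size was the only scaling, 1.02% were called lower and 1.83% higher, and 3 members were called.

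mt-Cytb stood at 20568 CPM in low cells of plate 1 and 19403 in low cells of plate 2, against 17159 and 16781 in high cells. The groups did not overlap, with means of 19985 ± 823 for low and 16970 ± 267.5 for high cells (SD over both plates, n = 2). With 2 values per group a lack of overlap is weak support, for this and the other members. The share of all genes that separate in this way is not given here. The log2 fold change of mt-Cytb was -0.24 (SE 0.05, adjusted p = 0.000278 with edgeR).

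mt-Atp6 stood at 7382 and 6455 CPM in low cells of plates 1 and 2, and at 6177 and 5514 in high cells. High cells of both plates were below low cells of both. Its log2 fold change was -0.24 (SE 0.06, adjusted p = 0.00285).

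mt-Co2 was at 14611 and 12423 CPM in low and at 12314 and 10948 CPM in high cells. Here too the categories did not overlap, although low cells of plate 2 were close to high cells of plate 1. The log2 fold change was -0.21 (SE 0.05, adjusted p = 0.00345), and -0.21 (SE 0.05, adjusted p = 0.00498) with the copy added.

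The remaining members did not pass the threshold. mt-Atp8 was at 1105 and 1212 CPM in low and 1006 and 976 CPM in high cells, without overlap (log2 fold change -0.22, SE 0.08, adjusted p = 0.190). mt-Co1 was at 6226 and 4699 CPM in low and 5657 and 4393 in high cells, and mt-Co3 at 2722 and 1859 in low and 2632 and 1572 in high cells. For both of these the plates differed by more than the categories, so that the groups overlapped, and the log2 fold changes were -0.12 (SE 0.06) and -0.14 (SE 0.07), each with an adjusted p of 0.423. As a plain share of counts mt-Co3 on plate 1 was slightly higher in high cells, at 0.263% against 0.258%.

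**Figure D2:**
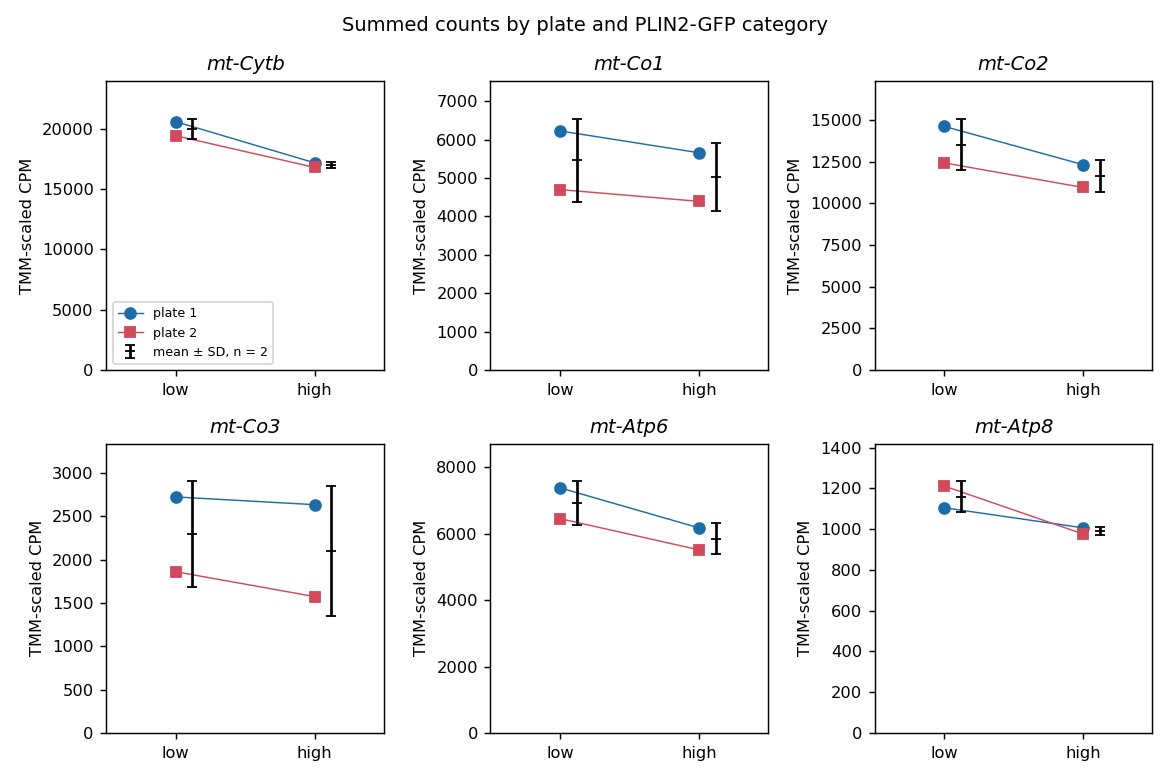
TMM-scaled CPM (y axis, from 0) of each member in low and high PLIN2-GFP NSPCs (x axis), with 1 point per plate joined by a line and the mean ± SD of 2 plates in black. All lines slope down from low to high, and for mt-Co1 and mt-Co3 the plates lie further apart than the categories.

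Depth moved with this comparison. In cells matched on total UMIs within plate (58 low and 58 high cells of plate 1, 37 and 37 of plate 2, with median totals of 8413 and 8824, and of 13964 and 14348), the log2 fold changes were 0.06 (SE 0.04, adjusted p = 0.782) for mt-Cytb, 0.03 (SE 0.04, adjusted p = 0.932) for mt-Co2 and 0.01 (SE 0.05, adjusted p = 0.990) for mt-Atp6. No member was called, against 0.101% called lower and 0.0432% called higher of the 6942 genes tested, and the median over the members was 0.00 in place of -0.22. mt-Atp8 stayed furthest from 0 at -0.14 (SE 0.09, adjusted p = 0.748). Both mitochondrial rRNAs were called lower in these matched cells: mt-Rnr1 at -0.36 (SE 0.05, adjusted p = 0.000195) and mt-Rnr2 at -0.26 (SE 0.04, adjusted p = 0.00180). Neither rRNA was called in the fit of all cells without plate as a block, and the difference between rRNAs and members was not tested.

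Tertiles of depth gave a mixed order. With the cells of each plate cut into tertiles by total UMIs, the median summed level of the members was higher in high cells in 3 of the 6 tertiles and lower in the other 3. In the shallowest tertile of plate 1 it was 6.45% of counts in high and 6.28% in low cells, and in the deepest tertile 4.04% and 4.34%, where high cells were also deeper within the tertile (median 17198 against 13583 UMIs). mt-Co1 and mt-Atp8 were lower in high cells in 5 of 6 tertiles. When each cell's share was averaged with equal weight, the high to low log2 ratio was -0.06 for mt-Cytb, -0.10 for mt-Atp6, -0.11 for mt-Co2 and -0.17 for mt-Atp8, and it lay above 0 for mt-Co1 (0.01) and mt-Co3 (0.05).

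No member was called in 3 further fits, in which few genes of any kind were called. Without plate as a block the log2 fold changes stayed near those with it, at -0.24 for mt-Cytb (SE 0.10), -0.24 for mt-Atp6 (SE 0.12) and -0.22 for mt-Co2 (SE 0.11), and 0.012% of all genes were called lower. In G1 cells alone they were -0.17, -0.20 and -0.21, with 0.132% of all genes called lower. After thinning every cell to 5000 UMIs the median over the members was -0.14, with 0.179% of all genes called lower.

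The relation to depth was strong for some members and near absent for others. Counts of mt-Cytb rose with total UMIs much more slowly than the total did: the slope of log2(count + 0.5) on log2 total UMIs was 0.56, where a gene at a constant share would have a slope of 1. From the lowest to the highest sixth of total UMIs (51 cells each, with medians of 3144 and 21337 UMIs), the median mt-Cytb count grew 2.81-fold while the median total grew 6.79-fold. Its share of counts fell from 3.02% to 1.41%, and no cell held more than 357 mt-Cytb counts.

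mt-Atp6 was alike, with a slope of 0.65 and a median share of 1.04% in the lowest and 0.492% in the highest sixth. mt-Co2 as deposited had a slope of 0.91, and its share ran from 1.36% in the lowest to 1.53% in the second and 0.983% in the highest sixth. With its copy added the slope was 0.74, since the copy took counts mainly in shallow cells. The other members had a slope near 1 over all cells, at 1.08 for mt-Co1, 1.00 for mt-Co3 and 1.00 for mt-Atp8. On plates 1 and 2 the slopes were 1.18 and 1.01 for mt-Co1, 1.16 and 0.90 for mt-Co3, and 1.04 and 0.89 for mt-Atp8. With its copy added mt-Co3 came to 0.90 over all cells.

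As rank correlations over all cells, the share of counts against total UMIs gave Spearman's rho of -0.83 for mt-Cytb, -0.73 for mt-Atp6, -0.41 for mt-Co2, 0.03 for mt-Co1, 0.01 for mt-Co3 and 0.09 for mt-Atp8. With copies added, rho was -0.73 for mt-Co2 and -0.21 for mt-Co3. These describe cells of 2 libraries that share the total in the denominator, and no p is given. The fall in share was present on each plate for mt-Cytb, with slopes of 0.55 and 0.54, and for mt-Atp6, with slopes of 0.68 and 0.62. For mt-Co2 rho was -0.38 on both plates. For mt-Co1, mt-Co3 and mt-Atp8 rho was 0.19, 0.17 and 0.17 on plate 1, and -0.05, -0.04 and -0.06 on plate 2. After thinning to 5000 UMIs, which left out 45 cells, rho for mt-Cytb was -0.75 with the cell's original total and for mt-Atp6 -0.57. Among the nuclear genes with a count in at least 95% of cells, 1.34% of all genes and a limit chosen after the values were seen, the slopes had a median of 0.97 and quartiles of 0.89 and 1.05, 0 of them were at or below that of mt-Cytb and 2 at or below that of mt-Atp6. Among the complex I mRNAs, mt-Nd1, mt-Nd2 and mt-Nd4 had slopes of 0.74, 0.72 and 0.73, mt-Nd3 and mt-Nd5 0.90 and 0.89, mt-Nd4l 1.00 and the sparse mt-Nd6 0.63, and the rRNAs mt-Rnr1 and mt-Rnr2 had 1.30 and 0.88.

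**Figure D3:**
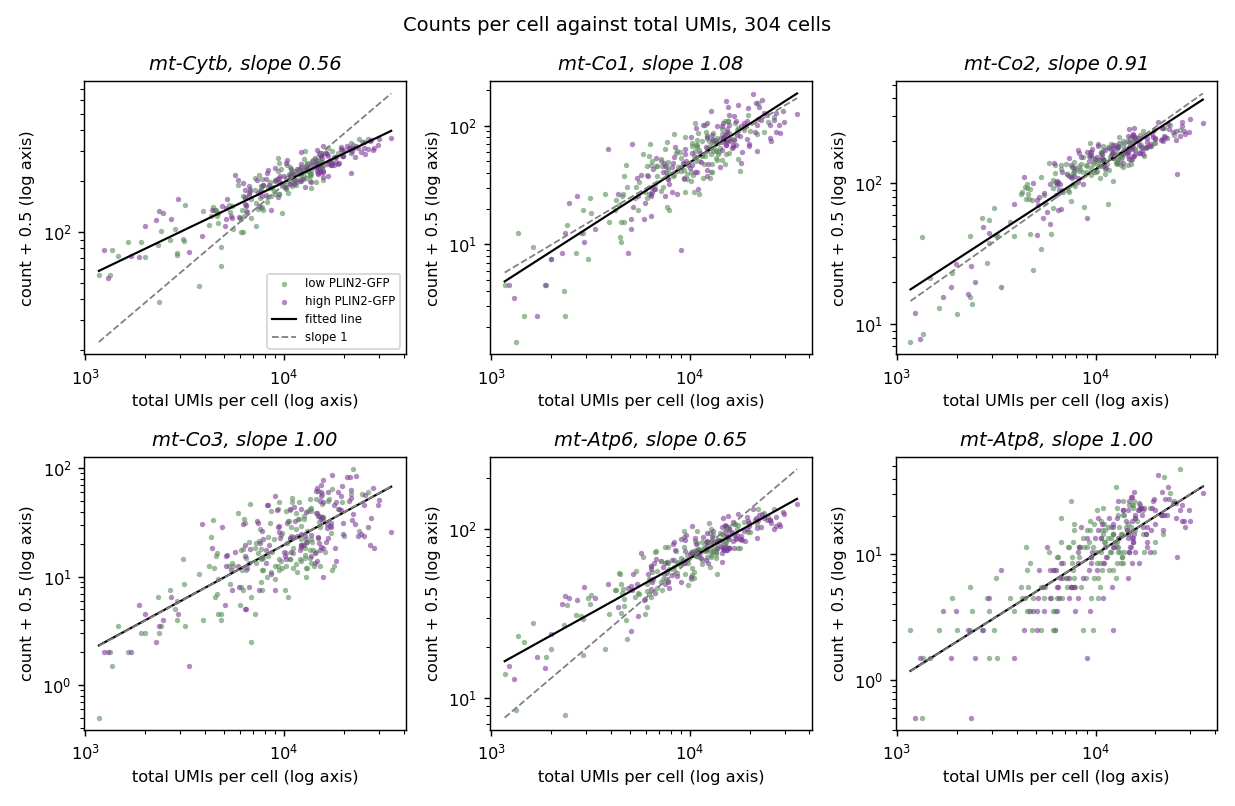
Count + 0.5 of each member per cell (y axis, log) against total UMIs of the cell (x axis, log) in all cells, coloured by PLIN2-GFP category, with the fitted line in black and a line of slope 1 dashed. The fitted slope is 0.56 for mt-Cytb and 0.65 for mt-Atp6, and 0.91 to 1.08 for the other members.

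Phase was compared to ask whether the mitochondrial mRNAs took a different share of the RNA as cells went through the cycle. All 6 members were lower in S and in G2/M cells than in G1 cells, by 0.26 to 0.51 on the log2 scale. Of the 7650 genes tested on 6 sums of plate and phase, 5.19% were called lower and 7.56% higher in S cells, and 7.40% lower and 9.01% higher in G2/M cells, and 6 of 6 members were called lower in each. S and G2/M were both set against the same G1 sums. The cell cycle genes from which phases were assigned were not left out of these shares. With library size as the only scaling, 8.92% of genes were called higher and 3.16% lower in S cells, and 6 members were called in each comparison.

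mt-Cytb stood at 20896 and 21858 CPM in G1 cells of plates 1 and 2, at 17180 and 16037 in S and at 17405 and 17704 in G2/M cells. Neither S nor G2/M overlapped G1, again in 2 values per group and without the share of all genes that separate in this way. The log2 fold changes were -0.36 (SE 0.05, adjusted p = 1.67e-05) for S and -0.28 (SE 0.05, adjusted p = 0.000261) for G2/M.

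mt-Atp8 differed most between G1 and G2/M. It stood at 1253 and 1366 CPM in G1, at 981 and 1028 in S and at 877 and 965 in G2/M cells, with no overlap between G1 and the others, and the log2 fold changes were -0.38 (SE 0.09, adjusted p = 0.00396) for S and -0.51 (SE 0.09, adjusted p = 0.000109) for G2/M. Its partner mt-Atp6 was at 7499 and 7183 CPM in G1, 6080 and 5415 in S and 6346 and 5779 in G2/M cells, or -0.35 (SE 0.06, adjusted p = 0.000157) and -0.28 (SE 0.06, adjusted p = 0.00163). Whether mt-Atp8 and mt-Atp6 differed in their change was not tested.

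Of the complex IV subunits, mt-Co2 was at 15231 and 13759 CPM in G1, 11984 and 10668 in S and 12272 and 11412 in G2/M cells. It fell by 0.36 (SE 0.05, adjusted p = 2.77e-05) in S and by 0.29 (SE 0.05, adjusted p = 0.000235) in G2/M cells. mt-Co1 was at 6647 and 5215 CPM in G1, 5689 and 4248 in S and 5303 and 4448 in G2/M cells, and its groups overlapped across plates but not within either plate. It fell by 0.26 (adjusted p = 0.00695) and 0.28 (adjusted p = 0.00261). mt-Co3 was at 3116 and 2017 CPM in G1, 2424 and 1666 in S and 2384 and 1567 in G2/M cells, with the same overlap across plates, and fell by 0.32 (adjusted p = 0.00416) and 0.38 (adjusted p = 0.000542).

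**Figure D4:**
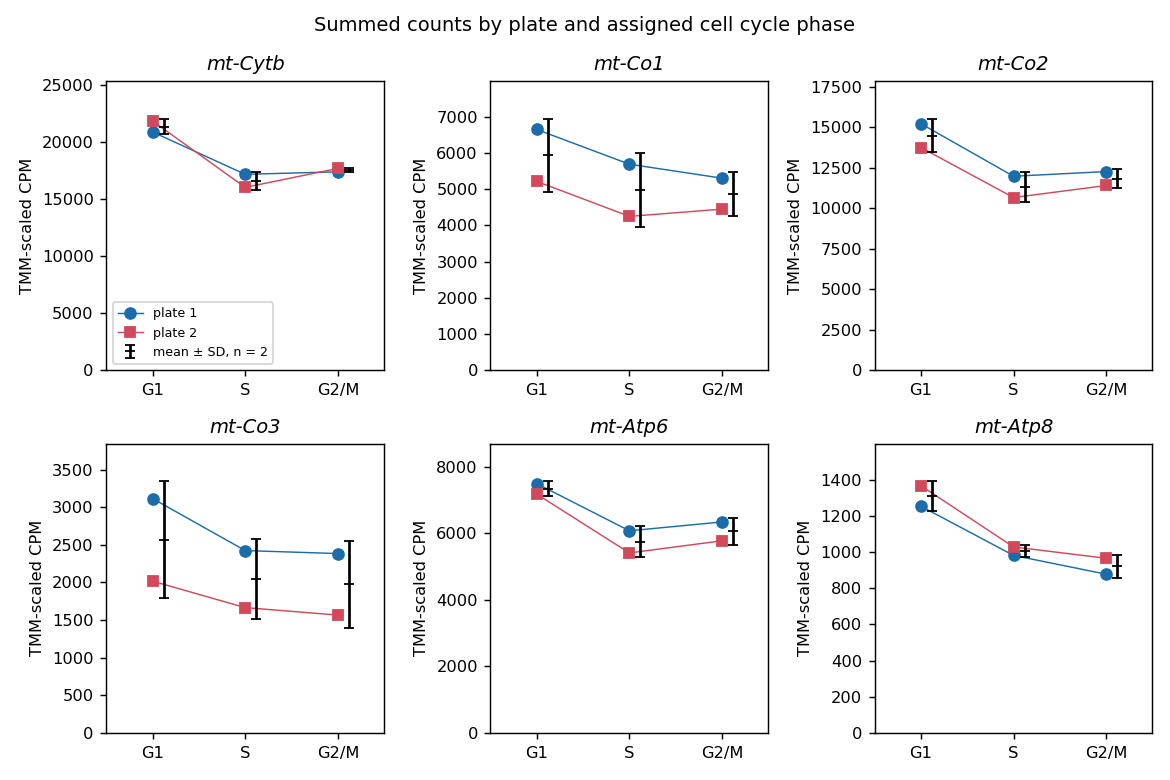
TMM-scaled CPM (y axis, from 0) of each member in G1, S and G2/M cells (x axis), with 1 point per plate joined by lines and the mean ± SD of 2 plates in black. On both plates the G1 value is above the S and the G2/M value for all 6 members.

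Phases also differed in depth, with median totals of 8290, 10994 and 9565 UMIs in G1, S and G2/M cells of plate 1 and 9825, 15301 and 12902 of plate 2. In cells matched on total UMIs across phases (31 per phase on plate 1, 18 on plate 2), all 6 members kept a negative log2 fold change. mt-Co1, at -0.25 (SE 0.08, adjusted p = 0.0769) in S and -0.31 (SE 0.08, adjusted p = 0.0220) in G2/M cells, was called in both, and mt-Atp8 at -0.38 (SE 0.11, adjusted p = 0.0619) and mt-Co3 at -0.31 (SE 0.10, adjusted p = 0.0777) were called in G2/M cells. mt-Cytb came to -0.12 in both (SE 0.06 each, adjusted p = 0.380 and 0.331) and mt-Atp6 to -0.13 and -0.11 (SE 0.08 each, adjusted p = 0.424 and 0.453). Thus 1 of 6 members was called in S and 3 of 6 in G2/M cells, where of the 5720 genes tested 2.1% were called lower and 4.46% higher in S and 4.3% lower and 6.15% higher in G2/M cells. The median summed level was below that of G1 cells in 6 of 6 tertiles of total UMIs for S and in 6 of 6 for G2/M cells. Single members were less uniform: in S cells mt-Cytb was below G1 in 6 of 6, mt-Co1, mt-Co2 and mt-Atp8 in 5 of 6 and mt-Co3 and mt-Atp6 in 4 of 6 tertiles, and in G2/M cells mt-Co1, mt-Co2 and mt-Atp8 in 6 of 6 and mt-Cytb, mt-Co3 and mt-Atp6 in 5 of 6. Without plate as a block, 2 of 6 were called in S (mt-Cytb and mt-Co2) and 1 of 6 in G2/M cells (mt-Atp8), where 1.27% and 3.05% of all genes were called lower. The medians over the members were -0.35 and -0.29 in those fits, against -0.36 and -0.29 with the block.

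**Figure D5:**
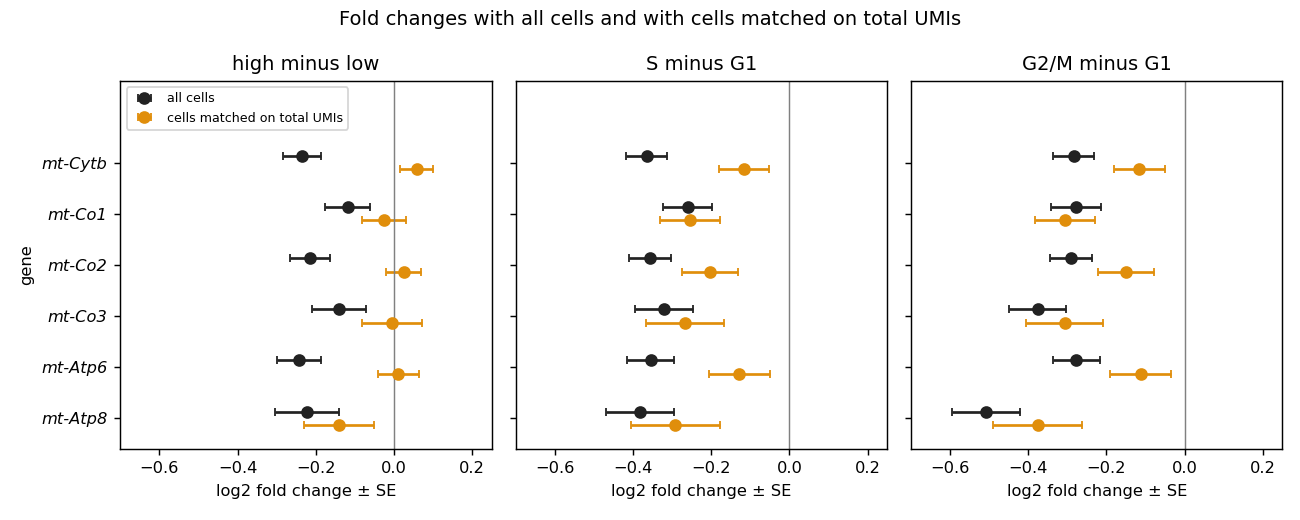
Log2 fold change ± SE (x axis) of each member (y axis) in high against low, S against G1 and G2/M against G1 cells, with all cells in black and with cells matched on total UMIs in orange. Matching takes the high to low values of mt-Cytb, mt-Co2 and mt-Atp6 from -0.24 to -0.21 to between 0.01 and 0.06, while all values against G1 stay below 0.

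Category and phase could be seen side by side in the sums. In G1 cells the members took 5.13% of counts in high and 5.24% in low cells of plate 1, and 4.54% and 4.99% of plate 2. S cells of plate 1 were at 4.10% in high and 4.78% in low, and those of plate 2 at 3.81% and 4.01%. G2/M cells were at 4.19% in high and 4.66% in low for plate 1, with 3.77% and 4.25% for plate 2. In these sums, in which deep cells weigh most, high cells were below low cells in all 6 pairs, and S and G2/M below G1 in both categories of both plates. The median over cells had another order in G1 cells of plate 1, at 5.61% in high and 5.29% in low cells, and in low cells of plate 1 it was 5.32% in G2/M against that 5.29% in G1 cells.

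The clusters differed little. The members took 4.65% of counts in cluster 0 and 4.77% in cluster 1 on plate 1, and 4.13% and 4.35% on plate 2, a mean log2 ratio of 0.06 that was 0.01 after thinning to 5000 UMIs. Cluster 0 held 61 high and 31 low cells of plate 1 and 40 and 23 of plate 2, and cluster 1 held 23 and 64, and 13 and 49. Within the high cells of plate 1 cluster 0 had the higher level (4.52% against 4.42%) and within those of plate 2 cluster 1 (4.39% against 3.91%). Clusters were made from these cells' expression, so no test was made.

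percent.mt contains the members, which were 36.2% to 38.1% of the mitochondrial counts by plate. Over cells the summed level of the members had a Spearman's rho of 0.86 with percent.mt, and 0.63 with the share of all other mitochondrial genes. For mt-Cytb rho was 0.77, and 0.64 when its own counts were taken out of percent.mt. mt-Atp6 was at 0.77, mt-Co2 at 0.57, mt-Co1 at 0.30, mt-Atp8 at 0.23 and mt-Co3 at 0.21. From the lowest to the highest 25% of cells by percent.mt (76 cells each) the median mt-Cytb share went from 1.46% to 2.72% and that of mt-Co1 from 0.415% to 0.548%, while the median total fell from 16936 to 6016 UMIs and G1 cells went from 15 to 53 of 76. Cells with a high percent.mt were thus also shallow and more often in G1.

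Between members, the shares of mt-Cytb and mt-Atp6 moved together over cells (rho 0.85, and 0.67 after thinning), ahead of mt-Co2 with mt-Atp6 (0.54 and 0.61) and mt-Cytb with mt-Co2 (0.48 and 0.54). mt-Co3 had a rho of 0.42 with mt-Co2 (0.25 after thinning) and of 0.40 with mt-Co1 (0.40 after thinning). mt-Atp8 was weakly related to all others, at 0.05 to 0.24, including mt-Atp6 from the same transcript. In counts this sparse a weak correlation is not a finding, and the members that tracked each other best were those whose share fell with depth.

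Of 2493 genes with a count in at least 50% of cells, those most like the summed members (as counts per 10000 nuclear counts, over all cells) were Gm10925, the copy of mt-Atp6 (rho 0.93), then mt-Nd4 (0.83), mt-Nd2 (0.83) and mt-Nd1 (0.80). Gm10925 equals mt-Atp6, a term of the sum, in every cell, so its rho is that of a part with the whole. mt-Nd3 (0.48), its copy Gm28438 (0.46), Gnas, a G protein subunit (0.45), mt-Rnr2 (0.45), Eef1a1, a translation elongation factor (0.43), and Gm3764 (0.43) completed the first 10. The median over all genes compared was -0.13.

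The rest of the mitochondrial genome was measured in the same fits. Of 7 complex I mRNAs, 2 were called lower in high cells (mt-Nd1 at -0.19, adjusted p = 0.0171, and mt-Nd2 at -0.19, adjusted p = 0.0266), 4 lower in S and 6 lower in G2/M cells, where 1.26%, 5.19% and 7.40% of all genes tested were. Their median log2 fold changes were -0.14, -0.23 and -0.29, against -0.22, -0.36 and -0.29 for the members. Both rRNAs were called lower in each comparison, mt-Rnr2 at -0.44 and mt-Rnr1 at -0.32 in high cells. In cells matched on total UMIs, 0, 1 and 2 of the complex I mRNAs were called lower, where 0.101%, 2.1% and 4.3% of all genes were.

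Nuclear subunits of the same complexes had medians above 0 in high cells, and their difference from the members was not tested. Of 9 complex III subunits 2 were called higher, the core subunit Uqcrc1 (log2 fold change 0.56, SE 0.17, adjusted p = 0.0516) and the Rieske protein Uqcrfs1 (0.32, SE 0.10, adjusted p = 0.0697), and 0 lower. Of 17 complex V subunits tested, Atp5k was called higher (0.33, SE 0.11, adjusted p = 0.0862), and of 11 complex IV subunits none, where 0.886% of all genes tested were called higher. The medians were 0.22, 0.15 and 0.08, with -0.00 over all genes tested. None of the 3 genes was called without plate as a block or in matched cells, where they stood at 0.66, 0.43 and 0.51 with adjusted p of 0.356, 0.186 and 0.142.

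Against G1 some nuclear subunits were called lower. In S cells 3 of 9 complex III, 6 of 11 complex IV and 4 of 17 complex V subunits were called lower and none higher, and in G2/M cells 3, 4 and 1. Over all genes 5.19% were called lower and 7.56% higher in S, and 7.40% and 9.01% in G2/M cells, so that 1 of 17 for complex V in G2/M was near the background. Cox6c led in S cells (-0.64, SE 0.11, adjusted p = 0.000297) and was the nuclear subunit whose call in S held in matched cells (-0.64, SE 0.16, adjusted p = 0.0357). Cox7c (-0.32, adjusted p = 0.00836), Cox8a (-0.46, adjusted p = 0.0195) and Cox5b (-0.35, adjusted p = 0.0374), also of complex IV, were called in S and again in G2/M cells (-0.32, -0.34 and -0.29). In matched G2/M cells no nuclear subunit was called, and without plate as a block Cox6c alone was called in S and none in G2/M cells. For complex III, Uqcrh was at -0.35 in both comparisons and Uqcrc2 at -0.48 and -0.39, Uqcrfs1 was called in S (-0.28) and Uqcr11 in G2/M (-0.63), and for complex V, Atp5g3 (-0.26), the ATPase inhibitor Atpif1 (-0.56), Atp5e (-0.57) and Atp5j2 (-0.32) were called in S and Atp5mpl (-0.45) in G2/M cells. The medians for complexes III, IV and V were -0.28, -0.33 and -0.26 in S and -0.19, -0.30 and -0.18 in G2/M cells, against -0.03 and -0.01 over all genes.

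For factors that build the complexes or express the mitochondrial genome, the counts called were near the share over all genes (1.26% lower in high, 5.19% in S and 7.40% in G2/M cells). Of the assembly factors of complexes III to V, 0 of 21 tested were called in high cells, 1 of 20 in S cells, the copper chaperone Sco2 (-1.36, SE 0.37, adjusted p = 0.0186, and 0.383 in matched cells), and 0 of 20 in G2/M cells. Of the mitochondrial transcription and RNA processing genes, 0 of 18 were called in high cells, 0 of 16 in S and 1 of 16 in G2/M cells, Fastk (-0.83, SE 0.32, adjusted p = 0.0904, and 0.297 in matched cells). The medians of these lists were 0.15 and 0.04 in high, -0.12 and 0.15 in S, and -0.01 and -0.04 in G2/M cells.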

How the data were processed

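SORT-seq libraries of 2 plates of NSPCs were analysed. The authors assigned reads of 60 bases to GRCm38 with Salmon and alevin (versions not given in the sources used here) and deposited expected counts of UMIs per gene and cell, which need not be whole where reads fit several genes, with a table per cell that holds percent.mt in percent, category, phase and cluster. Columns were joined to cells by equal totals and gene numbers (0 unmatched), and percent.mt was recomputed to within 1e-06. Counts were summed per plate and category (4 sums) or plate and phase (6 sums), rounded, and tested with edgeR 4.0.16 (quasi-likelihood, TMM, plate as a block, R 4.3.3). limma 3.58.1 (voom) and DESeq2 1.42.0 served as alternatives. Residual degrees of freedom were 1 and 2. Same-plate deviations correlated at 0.294 for low and high cells and 0.179 to 0.212 for phases, and cells of both categories shared each plate, which is why plate was kept as a block. Sums held 444463 to 1003484 counts in the genes tested.

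Copies were found with BLAST 2.17.0 among GENCODE M21 transcripts. UMI matching took equal numbers of cells per group in bins of 0.25 on the log2 scale of total UMIs. That matching, the addition of copies and the limit of 20% on percent.mt were chosen after seeing the data. Named genes were the 6 members, the 10 genes most like their sum, and up to 4 called genes per list and comparison. The members and gene lists were chosen with earlier results of these data known. The test was also run on simulated sums with known folds, at a dispersion near the 0.00327 fitted to the high and low sums. The phase sums had a dispersion of 0.00443, and the outcome is not given here. Python 3.11.15, numpy 2.4.6, pandas 2.3.3, scipy 1.17.1 and matplotlib 3.10.9 were used.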

Additional observations from a re-analysis of the deposited data

How the results depend on the processing

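Of the members, 3 were called in high against low cells, and this count became 0 with no replicate block, 1 with DESeq2 and the replicate block, 0 after thinning to 5000 UMIs, 0 in G1 cells and 0 in cells matched on total UMIs. It was 0 to 0 with each sum left out, in fits that had no block. Limma, other scalings, filters, added copies and the limit of 20% gave 3 or 4. In matched cells the direction turned for mt-Cytb (0.058), mt-Co2 (0.025) and mt-Atp6 (0.011), and in G1 cells for mt-Co1 (0.012). With a sum left out mt-Co1 ran from -0.31 to 0.10 and mt-Co3 from -0.54 to 0.21, above 0 without high replicate 2 (0.057 and 0.21) or low replicate 1 (0.10 and 0.18). The 6 members called in S cells became 2 with no replicate block, 3 with DESeq2, 1 in matched cells, and 5 to 6 with each sum left out (5 without G1 replicate 1). The 6 in G2/M cells became 1 with no replicate block, 3 in matched cells, and 5 to 6 with each sum left out (5 without G2/M replicate 1). Against G1 every member kept its sign in all fits of summed counts run, but not in every tertile of depth. Over all genes, high against low had 0 called higher and 1 lower with no replicate block, 3 and 8 with DESeq2, 4 and 10 thinned, 1 and 7 in G1 cells, 3 and 7 matched, and 0 to 7 and 3 to 15 with a sum left out. In S cells 7.56% of genes were called higher and 5.19% lower, and this was 4.54% and 1.27% with no replicate block, 2.25% and 0.458% with DESeq2, 5.10% and 3.13% thinned, 12.3% and 9.95% of the 1427 genes with at least 50 counts in every sum, and as low as 3.82% and 1.96% with a G1 or S sum left out. In G2/M cells 9.01% and 7.40% became 5.49% and 3.05%, 3.02% and 1.12%, 7.01% and 5.77%, 16.4% and 17.8%, and as low as 5.15% and 3.17% with a G1 or G2/M sum left out. The cluster ratio of the summed level, 0.06, was 0.0095 thinned. Its rho with total UMIs of -0.76 was -0.68 thinned and -0.80 with copies added, and its rho with percent.mt of 0.86 was 0.63 without the members themselves and 0.78 thinned. The causes were not tested. Both plates came from 1 line, and 1 or 2 residual degrees of freedom make the calls lean on the spread shared across genes.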
